A study of Homo sapiens with 4 samples.

Results

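The genes described here are 10 regulators of the pluripotent state, POU5F1, SOX2, NANOG, SALL4, LIN28A, LIN28B, TRIM71, PRDM14, ZSCAN10 and ESRRB. They were taken by gene symbol, 10 of the 26364 genes in the count tables, and were compared between sh60 and LacZ libraries of NTERA2, a human embryonal carcinoma line that expresses many genes of pluripotent stem cells. The sh60 group (replicates 1 and 2) carries the genotype label BEND3 sh60, read here as a short hairpin RNA against BEND3, and the LacZ group (replicates 1 and 3) carries the label BEND3 LacZ, read here as its control. The labels do not spell out either reading. All 4 libraries came from 1 line, given as clone CRL-1973 and grown in high-glucose DMEM with serum. The labels do not say whether replicates were separate cultures, so the p-values speak to the spread among these samples alone, and that spread may be technical. BEND3 is a chromatin-bound repressor, and the question of the series, by its title, is whether it keeps differentiation genes repressed in pluripotent cells.

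POU5F1 (OCT4), SOX2 and NANOG are transcription factors that bind many of the same enhancers, often with OCT4 and SOX2 side by side on adjoining DNA motifs, and they maintain their own transcription. LIN28A and LIN28B are RNA-binding proteins that hold back maturation of the let-7 microRNAs, which otherwise accumulate as cells differentiate and repress growth genes. TRIM71, itself a let-7 target, acts on the same axis as a ubiquitin ligase and mRNA repressor.

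Of the 10 regulators, SOX2 rose in sh60, NANOG, SALL4, LIN28B, TRIM71, ZSCAN10 and ESRRB fell, and POU5F1, LIN28A and PRDM14 did not pass the test. NANOG fell by 16.0% and ESRRB fell by 55.0%, the smallest and the largest of these falls, and SOX2 was 23.8% higher. The 2 most abundant members, LIN28A and POU5F1, were among those that did not pass. The 7 members that passed compare with 28.8% of the 16040 genes tested (15.8% higher and 13.0% lower in sh60). Among the 11255 tested genes with a mean of at least 5 CPM (counts scaled to a common library size), which take in 9 of the 10 members, 32.0% passed (17.4% higher and 14.6% lower). Of those 9 members, 6 passed. All 10 members passed the filter on low counts. The test was edgeR's quasi-likelihood test with Benjamini-Hochberg adjustment over all genes tested and a threshold of 0.05, and it is the source of every adjusted p below. In these bulk samples, fewer cells of a type and less RNA per cell cannot be told apart.

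Sequences before the starts of members whose levels differed are shown because they hold the letters read by OCT4 and SOX2, or lack them. Promoters came from RefSeq on GRCh38.p14, a build other than the hg19 of the counts. Those of 6 of the 10 members were searched (SOX2, NANOG, LIN28B, TRIM71, ZSCAN10 and ESRRB). POU5F1, SALL4 and LIN28A had no entry. PRDM14 was left out of the search, so its motifs and CpG content are not described. Each line gives the 250 bases before a start, 5′ to 3′ on the strand of the gene. Capitals mark matches on either strand to the octamer letters ATGCAAA or the SOX letters ACAATG.
NANOG, chr12:7789152-7789401, plus strand: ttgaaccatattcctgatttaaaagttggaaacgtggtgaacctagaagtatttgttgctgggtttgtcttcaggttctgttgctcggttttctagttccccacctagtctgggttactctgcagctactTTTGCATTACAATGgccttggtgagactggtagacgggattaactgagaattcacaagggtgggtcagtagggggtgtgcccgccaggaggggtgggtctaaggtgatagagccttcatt
SOX2, chr3:181711675-181711924, plus strand: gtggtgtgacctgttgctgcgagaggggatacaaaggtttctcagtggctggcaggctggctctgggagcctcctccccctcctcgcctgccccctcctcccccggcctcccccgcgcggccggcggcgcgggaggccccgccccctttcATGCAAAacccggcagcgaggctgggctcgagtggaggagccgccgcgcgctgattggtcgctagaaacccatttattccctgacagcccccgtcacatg
LIN28B, first of its starts in the table, chr6:104940715-104940964, plus strand: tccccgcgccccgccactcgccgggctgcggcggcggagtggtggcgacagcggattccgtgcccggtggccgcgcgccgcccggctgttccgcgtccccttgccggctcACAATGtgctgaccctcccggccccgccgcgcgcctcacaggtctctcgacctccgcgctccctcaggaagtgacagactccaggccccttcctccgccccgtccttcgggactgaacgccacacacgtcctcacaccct
ZSCAN10, chr16:3099295-3099544, minus strand: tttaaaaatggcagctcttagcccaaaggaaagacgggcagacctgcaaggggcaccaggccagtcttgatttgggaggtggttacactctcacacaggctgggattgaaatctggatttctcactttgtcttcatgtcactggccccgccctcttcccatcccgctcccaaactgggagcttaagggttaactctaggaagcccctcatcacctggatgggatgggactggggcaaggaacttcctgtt

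In the NANOG window the octamer and SOX letters adjoin as 1 composite, in which the SOX letters of one strand and the octamer letters of the other are 1 base apart. It begins 120 bases before the start and is the place where OCT4 and SOX2 are known to bind together. That composite was found in 2 of 35116 promoter windows of this length (0.0057%), those of NANOG and NRARP. The SOX2 window held the octamer letters alone, 100 bases before the start. Those letters were found in 3.94% of all windows. The printed LIN28B window held the SOX letters, found in 9.29% of all windows, and the window of the other LIN28B start held neither motif. Of the 3 starts of ESRRB, 1 had the SOX letters in its window, 56 bases before the start. The ZSCAN10 window and that of TRIM71 held neither. The windows also differed in CpG content, with 33 CpG pairs for the printed LIN28B start and 6 for the other, 25 for TRIM71, 20 for SOX2, 4 for NANOG, 3 for ZSCAN10 and between 3 and 5 for the starts of ESRRB. The median of all windows was 11. Members that fell were thus found with windows above and below that median.

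The let-7 microRNAs are shown because LIN28A and LIN28B act on them. Their mature forms are too short for an mRNA library and were not measured. Capitals mark the seed, bases 2 to 8, in the mature forms and the letters GGAG, which LIN28 proteins bind in the loop, in the hairpins.
hsa-let-7a-5p: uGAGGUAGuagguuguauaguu
hsa-let-7g-5p: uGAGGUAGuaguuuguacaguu
let-7g hairpin, chr3:52268278-52268361, minus strand: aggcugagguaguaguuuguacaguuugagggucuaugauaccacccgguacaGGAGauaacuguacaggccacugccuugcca
let-7b hairpin, chr22:46113686-46113768, plus strand: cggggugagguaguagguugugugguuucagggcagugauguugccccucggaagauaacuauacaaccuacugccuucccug

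All 8 mature let-7 5p forms in the RefSeq table share the seed GAGGUAG. Of 11 let-7 hairpins, 9 hold GGAG, and the let-7b and let-7a-3 hairpins do not.

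The libraries held between 30338285 and 44788461 counts, and a single count was worth between 0.0221 and 0.0333 CPM. CPM here uses library sizes scaled by TMM, the trimmed mean of M-values. The first principal component of log CPM held 76.0% of the variance and separated the groups, with LacZ replicate 1 nearer to the sh60 libraries than LacZ replicate 3. BEND3, the gene the labels name, measured 55.7 and 51.9 CPM in sh60 and 68.8 and 79.3 CPM in LacZ (log2 fold change -0.46, SE 0.098, edgeR adjusted p = 0.00168). Without LacZ replicate 3 BEND3 did not pass (-0.35, adjusted p = 0.149). The labels call the cells a lung carcinoma line. All 12 markers fixed for embryonal carcinoma passed the count filter, with a sum of 6293 to 6497 CPM in sh60 and 6825 to 7005 CPM in LacZ, whereas of 10 lung markers 3 passed. Of the embryonal carcinoma markers, 1 was higher and 6 were lower in sh60 (58.3% beside 28.8% of all genes). These markers include the members POU5F1, SOX2, NANOG, LIN28A and SALL4, so they are not independent of the genes described here. The lung factor NKX2-1 had 1 count in 1 library, and SFTPB and SCGB1A1 had none, which allows up to 0.0663 to 0.0998 CPM per library for counting error alone. The summed lung markers were 22.6 to 27.5 CPM in sh60 and 22.1 to 23.0 CPM in LacZ, nearly all from SCGB3A2 and ABCA3. Of 10 blood markers, PTPRC and HBB were at 0 counts throughout and the sum was 2.05 to 2.29 CPM in sh60 and 2.29 to 2.42 CPM in LacZ. Of 12 markers of other germ cell tumour types in the files, 8 were tested, and 1 was higher and 1 lower in sh60 (25% beside 28.8% of all genes). CGB3 and CGB5 were at 0 counts. TFAP2C measured 67.8 and 70.5 CPM in sh60 and 58.0 and 60.2 CPM in LacZ and did not pass. The 12 markers summed to 271.1 to 291.0 CPM in sh60 and 248.5 to 259.8 CPM in LacZ. The 10 fibroblast markers summed to 929.0 to 1093 CPM in sh60 and 447.0 to 544.0 CPM in LacZ, of which COL1A1 made up most in sh60, while DCN measured 2.50 and 1.88 CPM in sh60 and 1.88 and 1.60 CPM in LacZ. Of the 9 that were tested, 66.7% were called, beside 28.8% of all genes. COL1A1, COL1A2, LUM and POSTN were higher, and THY1 and PDGFRA were lower (log2 fold changes -0.34 and -0.30, edgeR adjusted p = 0.00368 and 0.0455). PDGFRB (-0.21), COL3A1 (-0.43) and DCN (0.31) did not pass. PDGFRA did not pass by DESeq2, with library totals or with no count filter. The part of these marker genes in the results below was not tested.

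POU5F1 encodes OCT4, the POU factor without which pluripotent cells are lost. It lies at chr6:31132114-31138470 (hg19, minus strand) and measured 909.8 and 1015.6 CPM in sh60 and 934.2 and 955.1 CPM in LacZ. The LacZ libraries fell between the sh60 libraries, so the groups overlapped, the one such case among the 10. The log2 fold change was 0.03 (SE 0.079, edgeR adjusted p = 0.835), and the 95% confidence interval of the percent change was -9.17 to 14.4. The sign of so small a value turned under upper-quartile scaling (-0.0022), with GC and length trends removed (-0.02) and without sh60 replicate 2 (-0.05). The gene is annotated on 6 alternative sequences beside chromosome 6 and has processed copies elsewhere, so its level is uncertain.

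SOX2, the partner of OCT4 on DNA and also a neural progenitor factor, is a gene of a single exon at chr3:181429712-181432223 (plus strand). It measured 150.1 and 150.9 CPM in sh60, against 120.4 and 122.8 CPM in LacZ. Replicates of a group lay within 3 CPM of each other, and both sh60 libraries were above both LacZ libraries. The rise was 1.24-fold (log2 fold change 0.31, SE 0.082, edgeR adjusted p = 0.00841). NANOG, the homeobox factor at chr12:7941992-7948657 (plus strand), went the other way. It measured 91.5 and 91.1 CPM in sh60, against 107.0 and 110.5 CPM in LacZ, with both sh60 libraries below both LacZ libraries (log2 fold change -0.25, SE 0.085, edgeR adjusted p = 0.0332). NANOG also has processed copies whose reads may have been lost. Without LacZ replicate 1 or LacZ replicate 3 neither passed (adjusted p = 0.189 and 0.179 for SOX2, 0.281 and 0.417 for NANOG), although the log2 fold changes stayed between 0.30 and 0.32 for SOX2 and between -0.26 and -0.23 for NANOG. With library totals in place of TMM the value for NANOG was -0.22 (adjusted p = 0.0553).

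SALL4, a zinc finger factor that binds AT-rich DNA and supports POU5F1 expression, lies at chr20:50400583-50419048 (minus strand). It measured 111.2 and 114.5 CPM in sh60 and 139.0 and 140.3 CPM in LacZ. The groups were well apart and the LacZ libraries nearly equal (log2 fold change -0.31, SE 0.083, edgeR adjusted p = 0.00910). Without LacZ replicate 1 or LacZ replicate 3 SALL4 did not pass (adjusted p = 0.185 and 0.222), with log2 fold changes of -0.30 in both. Its 3 paralogs fell as well. SALL1 measured 207.7 and 191.2 CPM in sh60 and 313.3 and 344.3 CPM in LacZ, and its log2 fold change was -0.72 (edgeR adjusted p = 4.65e-06). The log2 fold changes of SALL3 and SALL2 were -0.52 and -0.46 (edgeR adjusted p = 0.000183 and 0.000633), and SALL2 did not pass without LacZ replicate 3 (adjusted p = 0.105). Over a list of paralogs and processed copies of the members 5 rose and 3 fell of 12 tested, or 66.7% called beside the 28.8% of all genes, and the risers included PRDM1, SOX15 and TRIM3 at log2 fold changes of 0.84, 1.16 and 0.67.

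PRDM14, a zinc finger factor with a PR domain that activates POU5F1 in human stem cells and guards the naive state in mouse, lies at chr8:70963886-70983562 (minus strand). It measured 51.3 and 52.4 CPM in sh60 and 43.7 and 48.8 CPM in LacZ. The sh60 libraries were above the LacZ libraries, but the gap between the LacZ libraries was wider than that from the nearer of them to sh60. The log2 fold change of 0.17 did not pass (SE 0.098, edgeR adjusted p = 0.218), and the 95% confidence interval of the percent change was -2.52 to 29.6. With GC and length trends removed PRDM14 passed narrowly (0.19, adjusted p = 0.0498). The log2 fold change was 0.10 without LacZ replicate 1 and 0.25 without LacZ replicate 3 (adjusted p = 0.770 and 0.389).

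ZSCAN10, known from mouse stem cells as Zfp206, is a zinc finger factor that binds with OCT4 and SOX2 there. It lies at chr16:3138891-3149318 (minus strand) and measured 54.6 and 54.3 CPM in sh60, against 78.3 and 91.2 CPM in LacZ. The sh60 libraries were nearly equal and the LacZ libraries were the less alike pair (log2 fold change -0.64, SE 0.097, edgeR adjusted p = 7.67e-05). ESRRB, an orphan nuclear receptor that sustains the naive state in mouse, lies at chr14:76837690-76968180 (plus strand) and was the least abundant member. It had 86 and 126 counts in the sh60 libraries and 242 and 184 counts in the LacZ libraries, or 2.52 and 2.78 CPM in sh60 and 5.74 and 6.12 CPM in LacZ. The groups were far apart against the spread within them (log2 fold change -1.15, SE 0.173, edgeR adjusted p = 6.87e-05), and the 95% confidence interval of the percent change was -65.0 to -42.1. ZSCAN10 and ESRRB were the 2 members called under all 12 alternative settings, with adjusted p of at most 0.0146 and 0.000501.

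**Figure D1:**
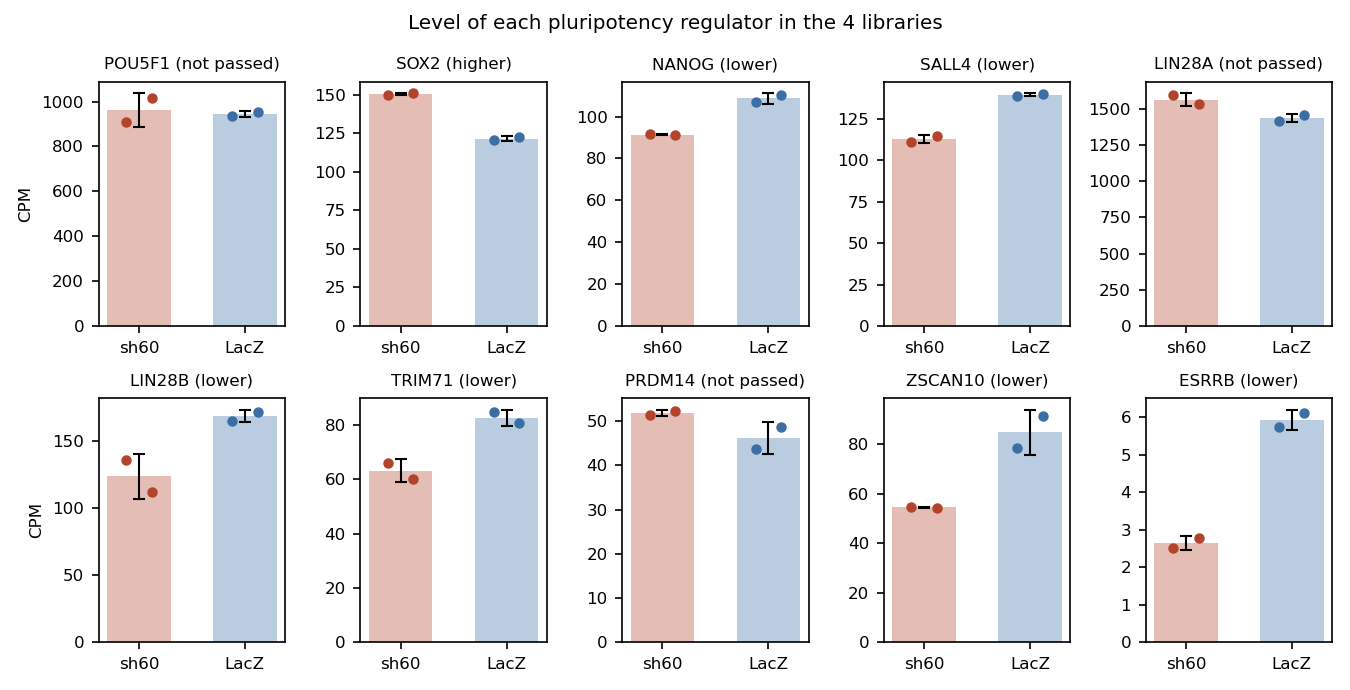
TMM-scaled CPM of the 10 regulators in the sh60 libraries (red points) and the LacZ libraries (blue points), each panel with its own axis from 0; bars are group means and error bars SD (n = 2 each). SOX2 is higher in both sh60 libraries, and NANOG, SALL4, LIN28B, TRIM71, ZSCAN10 and ESRRB are lower in both.

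Of the LIN28 paralogs, LIN28A did not pass and LIN28B fell. LIN28A, at chr1:26737269-26756219 (plus strand), measured 1594.0 and 1529.9 CPM in sh60 and 1414.1 and 1452.9 CPM in LacZ. Both sh60 libraries were above both LacZ libraries, but the log2 fold change of 0.12 did not pass (SE 0.074, edgeR adjusted p = 0.235), with a 95% confidence interval of the percent change of -2.21 to 21.4. Without sh60 replicate 2 LIN28A passed (0.15, adjusted p = 0.0259). LIN28B, which differs from LIN28A by a longer tail with a nuclear localisation signal, lies at chr6:105404923-105531207 (plus strand). It measured 135.7 and 112.1 CPM in sh60, against 165.4 and 172.1 CPM in LacZ. Both sh60 libraries were lower, and they differed from each other more than the LacZ pair did. The log2 fold change was -0.45 (SE 0.094, edgeR adjusted p = 0.00147). Without sh60 replicate 2 it was -0.31 and without sh60 replicate 1 it was -0.59. Without LacZ replicate 3 LIN28B narrowly missed the threshold (-0.42, adjusted p = 0.0514).

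TRIM71, at chr3:32859510-32933771 (plus strand), is known in mouse stem cells for repressing the mRNA of the cell cycle inhibitor Cdkn1a. It measured 66.2 and 60.3 CPM in sh60, against 84.8 and 80.6 CPM in LacZ, and the groups did not overlap. The log2 fold change was -0.39 (SE 0.092, edgeR adjusted p = 0.00383). TRIM71 did not pass without LacZ replicate 1 (-0.34, adjusted p = 0.147) or without LacZ replicate 3 (-0.42, adjusted p = 0.0620).

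In all, the libraries of the groups did not overlap for 9 of the 10 members, 3 higher and 6 lower in sh60, against 64.4% of all genes tested (32.1% higher and 32.3% lower). The median log2 fold change of the 10 was -0.28, beside -0.0042 over all genes tested. Leaving out a LacZ library lowered the counts most. Without LacZ replicate 1, 3 members were called (LIN28B, ZSCAN10 and ESRRB), without LacZ replicate 3, 2 were called (ZSCAN10 and ESRRB), and all of these were lower in sh60. The share of all genes called was lower in the same fits, 18.7% without LacZ replicate 1 and 14.6% without LacZ replicate 3. Without sh60 replicate 2, 8 were called, beside 33.7% of all genes. LacZ replicate 1 lay on the sh60 side of LacZ replicate 3 for 5 of the 7 called members (71.4%), as it did for 71.3% of all called genes.

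**Figure D2:**
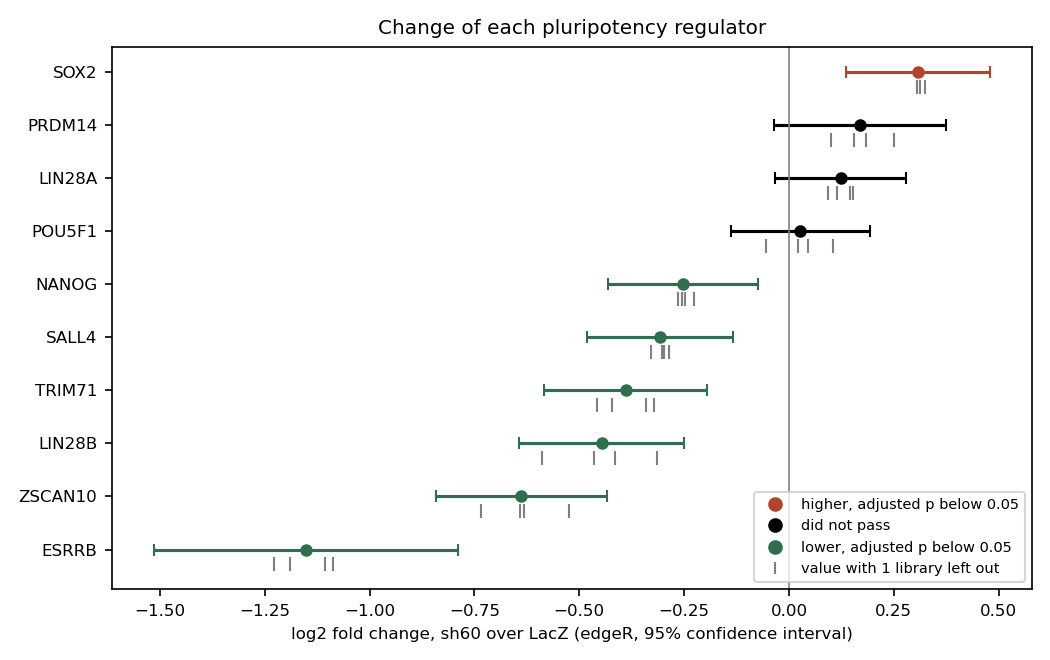
Log2 fold change of each regulator, sh60 over LacZ, with its 95% confidence interval from edgeR; grey ticks are the values with 1 library left out. SOX2 lies to the right of 0 at 0.31, the intervals of POU5F1, LIN28A and PRDM14 span 0, and the other 6 lie to the left down to ESRRB at -1.15.

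Ratios between members within a library do not depend on its scaling. SOX2 over NANOG, in counts per kilobase of exon, was 1.37 and 1.39 in sh60 and 0.942 and 0.930 in LacZ. The order of the 2 genes per length thus differed between the groups, and it rests on the exon lengths used (2512 and 2103 bases). In CPM, which is not divided by length, SOX2 was above NANOG in all 4 libraries (120.4 and 122.8 against 107.0 and 110.5 CPM in LacZ). POU5F1 over SOX2 was 5.50 and 6.11 in sh60 and 7.04 and 7.06 in LacZ. LIN28A over LIN28B was 16.1 and 18.7 in sh60 and 11.7 and 11.6 in LacZ. LIN28A thus made up 94.5% ± 0.545 of the summed LIN28 level per length in sh60 and 92.1% ± 0.066 in LacZ (SD, n = 2 each). The sh60 and LacZ libraries did not overlap for any of these ratios. With 2 libraries against 2, the smallest p of a two-sided exact permutation test is 0.333, and each of the ratios gave that value.

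**Figure D3:**
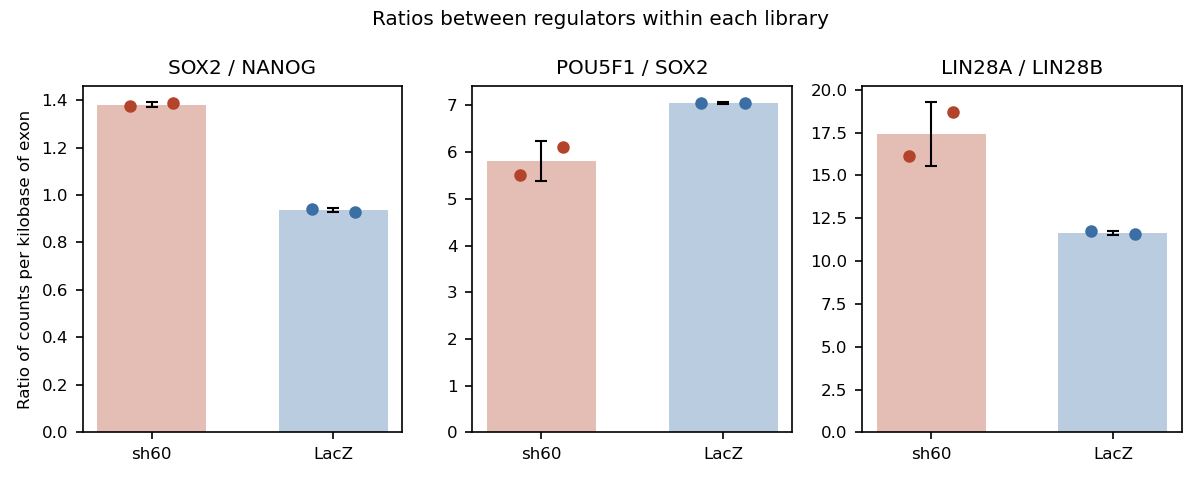
Ratios of counts per kilobase of exon between regulators in each library (points), with group means (bars) and SD (error bars, n = 2 each), sh60 left and LacZ right. Per length, SOX2 over NANOG is above 1 in both sh60 libraries and below 1 in both LacZ libraries. In CPM, SOX2 is above NANOG in every library.

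The levels were set against each other as TPM, counts per length of exon scaled to the same sum in every library. LIN28A had the highest level, 1042 and 963.1 TPM in sh60 and 881.7 and 894.4 TPM in LacZ, followed by POU5F1 with 862.9 and 927.1 TPM in sh60 and 844.7 and 852.6 TPM in LacZ. Both stood above the 99th percentile of the detected genes of their library (99.3 to 99.4). SOX2 had 154.3 ± 3.59 TPM in sh60 and 120.4 ± 0.590 TPM in LacZ, and NANOG had 111.8 ± 3.38 TPM in sh60 and 128.6 ± 1.79 TPM in LacZ. Per length they ranked 3 and 4 in sh60 and in the other order in LacZ, whereas in CPM SOX2 was above NANOG in every library. SALL4 ranked 5 in all 4 libraries, with 83.4 ± 0.508 TPM in sh60 and 99.7 ± 0.233 TPM in LacZ (SD, n = 2 each). LIN28B, PRDM14, TRIM71 and ZSCAN10 followed between 48.5 and 64.7 TPM in sh60 and between 46.6 and 82.2 TPM in LacZ. Within that band the range of LIN28B in sh60 overlapped those of PRDM14, TRIM71 and ZSCAN10, and TRIM71 and ZSCAN10 overlapped each other, so their order there is not settled. In LacZ only ZSCAN10 and LIN28B overlapped among these 4. ESRRB was lowest at 2.20 and 2.33 TPM in sh60 and 4.77 and 5.02 TPM in LacZ, below the median detected gene. Exons of all transcripts count towards a length here, which lowers the level of genes with many transcript forms such as POU5F1. LIN28A and POU5F1 together held 79.1% and 79.95% of the members' counts in sh60 and 75.9% and 75.7% in LacZ.

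**Figure D4:**
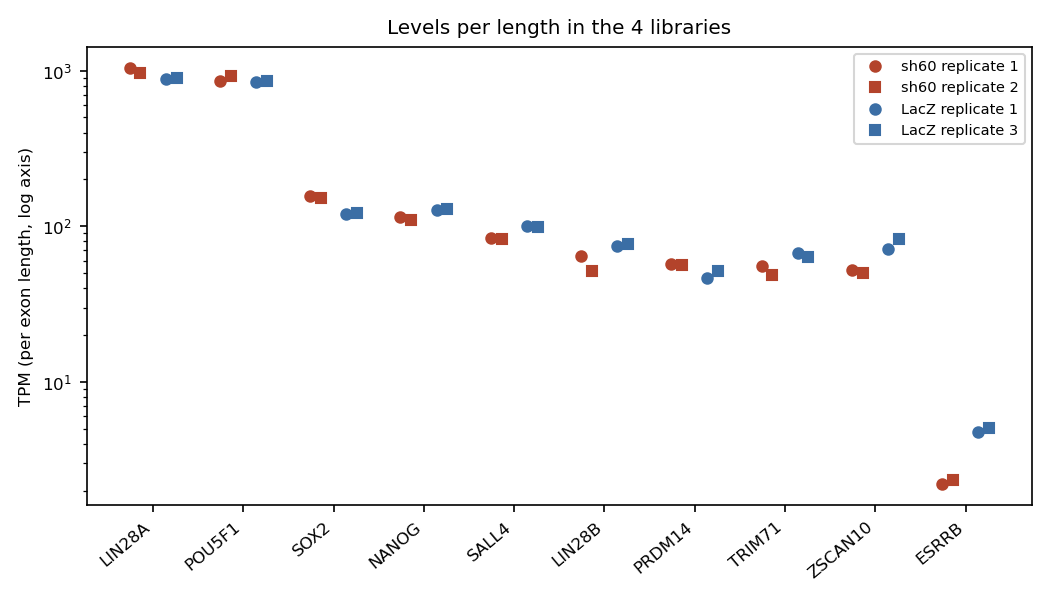
TPM of the 10 regulators in each library on a log axis, in order of the mean level in sh60; circles and squares are the replicates, sh60 left and LacZ right of each mark. LIN28A and POU5F1 lie between 844.7 and 1042 TPM, and ESRRB lies between 2.20 and 5.02 TPM.

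The wider networks of these factors were described by lists, without a test of the list. The lists share some genes and are not independent. SALL1, SALL2, SALL3 and SOX3 are also in the paralog list, and NR6A1 and MYCN are in the primed and let-7 target lists. DICER1 is in both let-7 lists, and COL1A1 is in the exit and fibroblast lists. Of 35 genes of the primed pluripotent state, the form in which human stem cells are usually grown, 16 fell, 5 rose and 14 did not pass, so 60% were called beside the 28.8% of all genes, with a median log2 fold change of -0.25. FOXH1, the DNA-binding partner of SMADs in NODAL signalling, measured 25.5 and 31.6 CPM in sh60 and 60.5 and 66.4 CPM in LacZ (log2 fold change -1.15, edgeR adjusted p = 6.34e-07). The de novo DNA methyltransferase DNMT3B and the neuropeptide GAL fell as well, with log2 fold changes of -0.72 and -0.81. The genes that rose included OTX2, a homeobox factor of the primed state and anterior neuroectoderm, at 57.8 and 57.2 CPM in sh60 and 33.1 and 25.3 CPM in LacZ (log2 fold change 0.97, edgeR adjusted p = 5.58e-06). They also included FGF2, the growth factor that sustains human stem cells, at 145.4 and 117.7 CPM in sh60 and 76.1 and 69.7 CPM in LacZ (0.85, edgeR adjusted p = 6.33e-06), and SOX3, a paralog of SOX2 (0.54, edgeR adjusted p = 0.00124). Without LacZ replicate 3, 10 fell and 3 rose.

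Of 16 genes linked with the naive state, an earlier form of pluripotency, 12 passed the count filter. Of these 4 fell, 1 rose and 7 did not pass, so 41.7% were called beside the 28.8% of all genes, with a median log2 fold change of -0.06. DPPA3, a maternal factor that protects DNA methylation, rose to 10.7 and 9.54 CPM in sh60, against 5.41 and 6.52 CPM in LacZ (0.77, edgeR adjusted p = 0.000711). FGF4, a growth factor whose enhancer is bound by OCT4 and SOX2, fell to 4.96 and 4.70 CPM in sh60, against 10.6 and 10.5 CPM in LacZ (-1.13, edgeR adjusted p = 1.05e-05). NR5A2, a nuclear receptor that binds the POU5F1 gene in mouse, and TBX3, a T-box factor, also fell, with log2 fold changes of -0.81 and -0.62. DPPA5 and ARGFX were at 0 counts in all libraries.

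Proteins that have been found with OCT4 or NANOG on chromatin formed another list. Of 26 genes 11 fell, 1 rose and 14 did not pass, so 46.2% were called beside the 28.8% of all genes, with a median log2 fold change of -0.21. RCOR2, a corepressor of the LSD1 complex, measured 57.7 and 63.0 CPM in sh60 and 86.3 and 90.6 CPM in LacZ (-0.55, edgeR adjusted p = 0.000199), while its paralog RCOR1 rose slightly (0.27, edgeR adjusted p = 0.0397). RCOR1 did not pass without LacZ replicate 1 or LacZ replicate 3 (adjusted p = 0.255 and 0.375) or with upper-quartile scaling (0.0636). ARID1A, a subunit of the BAF remodelling complex, and WDR5, a subunit of histone methyltransferase complexes, fell (-0.42 and -0.40, edgeR adjusted p = 0.000459 and 0.00143). Without LacZ replicate 3 ARID1A missed the threshold (adjusted p = 0.0566), and WDR5 missed it without either LacZ library (0.0659 and 0.0652). The count depended on the libraries. Without LacZ replicate 1 or LacZ replicate 3 the share of partners called was below that of all genes in the same fit. The higher share given above thus rests on both LacZ libraries. With GC and length trends removed 20 were called, in a fit that called 41.1% of all genes.

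Targets of let-7, the genes that LIN28 proteins spare from repression, moved both ways. Of 30 listed targets 8 rose, 4 fell and 18 did not pass, with a median log2 fold change of 0.01. The 40% called stand beside the 28.8% of all genes. The balance of directions depended on the setting, with 6 higher and 8 lower under upper-quartile scaling and 7 higher and 10 lower with GC and length trends removed. FAS, a death receptor and also a p53 target, rose to 27.4 and 26.2 CPM in sh60, against 9.54 and 6.45 CPM in LacZ (1.73, edgeR adjusted p = 1.33e-07). THBS1, the matrix protein thrombospondin, rose to 157.9 and 162.4 CPM in sh60, against 64.9 and 39.2 CPM in LacZ (1.61, edgeR adjusted p = 3.07e-07). ARID3A, a DNA-binding factor, rose as well (0.44, edgeR adjusted p = 0.000919) and did not pass without LacZ replicate 3 (0.0964). HMGA1, a chromatin protein abundant in embryonal carcinoma, fell to 1514 and 1689 CPM in sh60, against 2143 and 2272 CPM in LacZ (-0.46, edgeR adjusted p = 0.000240). The cell cycle factor E2F2 fell (-0.65, edgeR adjusted p = 0.00204), and the nuclear receptor NR6A1 fell (-0.39, edgeR adjusted p = 0.00181) but did not pass without LacZ replicate 3 (0.186). Among the best known let-7 targets, named after their values were seen, HMGA2 rose (0.33, edgeR adjusted p = 0.00434), though not without LacZ replicate 1 or LacZ replicate 3 (0.116 and 0.0850), and IGF2BP1, IGF2BP2 and IGF2BP3 had log2 fold changes of -0.10, -0.06 and 0.02 and did not pass. Without LacZ replicate 1 or LacZ replicate 3 the share of targets called was close to that of all genes in the same fit. The higher share given above thus rests on both LacZ libraries.

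Of 15 genes that process let-7 or help LIN28 hold it back, 4 fell, 0 rose and 11 did not pass, a share of 26.7% beside the 28.8% of all genes. At an unadjusted p under 0.05 edgeR likewise gave 4 lower and 0 higher, and DESeq2 and limma-voom each called 4 lower and 0 higher. MSI1, an RNA-binding protein reported to act with LIN28A, measured 51.1 and 57.8 CPM in sh60 and 74.0 and 86.2 CPM in LacZ (-0.56, edgeR adjusted p = 0.000443). DROSHA, the nuclear enzyme that cuts primary microRNAs, and KHSRP, which promotes let-7 maturation, fell slightly (-0.34 and -0.27, edgeR adjusted p = 0.00851 and 0.0136). Without LacZ replicate 3 none of these passed, with adjusted p of 0.0503 for MSI1, 0.199 for DROSHA and 0.234 for KHSRP. TUT4, the uridylating enzyme recruited by LIN28A and listed in the files as ZCCHC11, measured 144.4 and 128.0 CPM in sh60 and 136.1 and 130.9 CPM in LacZ and did not pass (0.03, edgeR adjusted p = 0.851). Here too the count depended on the libraries, with 1 called without LacZ replicate 1, 0 without LacZ replicate 3 (2 lower at an unadjusted p under 0.05) and 7 without sh60 replicate 1. With GC and length trends removed, where 41.1% of all genes were called, 8 were called here.

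Genes that mark the exit from pluripotency were called in both directions, 8 lower and 6 higher of 22 tested, or 63.6%, beside 13.0% lower and 15.8% higher over all genes. The fallers with the smallest p were the primitive streak factors MIXL1, TBXT (listed as T) and EOMES, at log2 fold changes of -1.59, -1.95 and -1.50. The risers with the smallest p were COL1A1, NR2F2 and KRT7, at 2.45, 1.57 and 1.12, and all of these passed with any 1 library left out. By DESeq2, 3 rose.

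**Figure D5:**
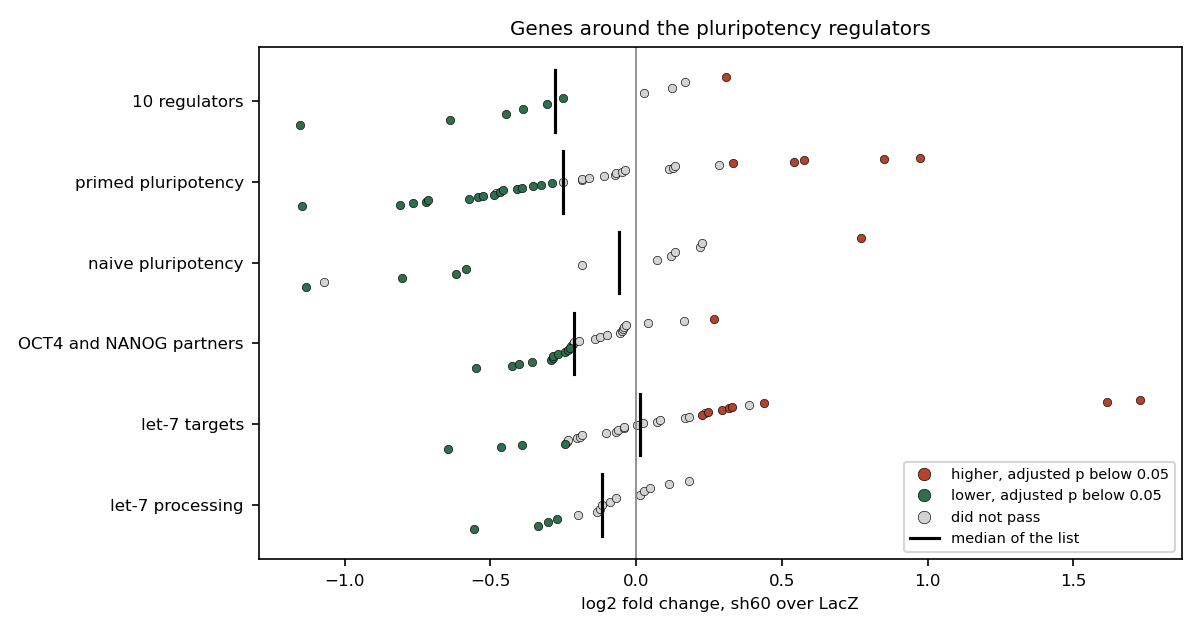
Log2 fold changes, sh60 over LacZ, of the tested genes in each list, red where higher and green where lower at an adjusted p below 0.05 and grey where not; black lines are medians. The median of the 10 regulators is -0.28 and that of the let-7 targets is 0.01.

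The genes with the most similar pattern to each called member were sought among 11255 genes with a mean of at least 5 CPM, by the Euclidean distance of log2 CPM centred over the 4 libraries. For SOX2 they were PPM1M and SH3BGRL (distances 0.016 and 0.021), and for NANOG they were STAU1 and CBLL1 (0.0048 and 0.010). For SALL4 they were PER1 and MCM4 (0.0098 and 0.011), and for LIN28B, FAM72B and KIF15 (0.024 and 0.026). For TRIM71 they were ZNF639 and ATXN7L1 (0.027 and 0.031), and for ZSCAN10, SNCG and MUC3A (0.027 and 0.044). For ESRRB they were AP3B2 and PCED1B (0.056 and 0.085). No member was the nearest gene of another, and with 4 libraries many genes share such a pattern. FAM72B and MUC3A have near-identical copies and their counts are uncertain. PPM1M did not pass (log2 fold change 0.31, edgeR adjusted p = 0.111).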

How the data were processed

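Messenger RNA of NTERA2 was sequenced single-end from 4 libraries. The deposited values are raw read counts per gene symbol, made with featureCounts of Subread 2.0.0 over exons with strand setting 2 and 4 threads, per the file headers. The submitters' processing notes also name STAR 2.7.6a, FastQC and the builds hg19 and GRCh37. No option for reads mapping to several places or genes appears in the headers' command.

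Groups and replicate numbers came from the library titles. The test was edgeR 4.0.16 (in R 4.3.3, glmQLFit and glmQLFTest) on all 4 libraries with group as the sole term. TMM gave the scaling, and filterByExpr kept 16040 of the 20937 genes with at least 1 count. The common biological coefficient of variation was 7.33%. P-values were adjusted over all genes tested. Depth was 33798665 and 44788461 counts in sh60 replicates 1 and 2 and 42538561 and 30338285 counts in LacZ replicates 1 and 3. Neither replicate pair was 1 library deposited again, since a chi-square of its counts over its degrees of freedom was 15.8 in sh60 and 5.89 in LacZ. Confidence intervals are at 95%. The script was tested on simulated data. TPM used exon lengths on the primary chromosomes only. No exon of a member overlapped an exon of another gene.

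Alternatives within edgeR took library totals, upper quartiles or the size factors of DESeq2 as scaling. Others were DESeq2 1.42.0 itself, limma-voom (limma 3.58.1), no count filter, 1 CPM in 2 libraries, loess trends of GC content and exon length removed (GC for 94.2% of tested genes, from GENCODE transcripts by symbol), and leaving out each library. The members and lists were chosen with earlier results of these data known. Named genes were all members and BEND3. From each list they were up to 3 genes per direction with the smallest p, and for each called member the 2 nearest genes by pattern.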

Additional observations from a re-analysis of the deposited data

How the results depend on the processing

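The direction and the side of the threshold were the same in 105 of the 120 values that 12 alternatives gave for the 10 members. DESeq2 size factors, upper-quartile scaling, DESeq2, limma-voom and both filter alternatives changed no call of a member, and the median log2 fold change of all genes moved by less than 0.1 under each setting. POU5F1 changed sign under upper-quartile scaling (-0.0022), with GC and length trends removed (-0.019) and without sh60 replicate 2 (-0.054). NANOG did not pass with library totals (-0.22) and PRDM14 passed with GC and length trends removed (0.19). With 1 library left out the log2 fold changes ran from 0.30 to 0.32 for SOX2, -0.26 to -0.23 for NANOG, -0.33 to -0.29 for SALL4, -0.59 to -0.31 for LIN28B, -0.46 to -0.32 for TRIM71, 0.094 to 0.15 for LIN28A, -0.054 to 0.10 for POU5F1, 0.10 to 0.25 for PRDM14, -0.73 to -0.52 for ZSCAN10, -1.23 to -1.09 for ESRRB and -0.55 to -0.35 for BEND3. A fit with 1 library left out has fewer samples and rests the level of that group on 1 sample, assumed to vary like the others. Its within-group spread comes from the pair that is left. The chi-square of counts over its degrees of freedom was 15.8 for the sh60 pair and 5.89 for the LacZ pair. Counts of calls with 1 library left out ran from 2 to 8 members, 2347 to 5445 of all genes, 13 to 24 primed genes, 1 to 19 partners, 4 to 18 let-7 targets and 0 to 7 processing genes. With GC and length trends removed 20 partners and 8 processing genes were called, and the share of all calls that were higher was 44.0%, against 54.9% in the test reported. The causes were not tested. No paired analysis was possible because the groups share only 1 replicate number. Depth limits ESRRB, with 86 to 242 counts per library, more than the other members.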

Other observations

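Rows related to the 10 regulators, some of them also in the list of paralogs, were chosen after their values were seen. LINC-ROR, a long noncoding RNA of pluripotent cells, measured 3.23 and 2.81 CPM in sh60 and 5.17 and 5.69 CPM in LacZ (log2 fold change -0.85, edgeR adjusted p = 0.00124). ESRG, an abundant noncoding RNA of embryonal carcinoma and stem cells, measured 527.3 and 492.0 CPM in sh60 and 539.4 and 614.6 CPM in LacZ and did not pass (-0.18, edgeR adjusted p = 0.121). SOX2-OT, the transcript whose intron holds SOX2, measured 2.58 and 2.32 CPM in sh60 and 1.47 and 1.80 CPM in LacZ and did not pass (0.59, edgeR adjusted p = 0.0561). The copies of POU5F1 that the tables list were low, with 27 and 50 counts in sh60 and 37 and 35 counts in LacZ for POU5F1B and 28 and 37 counts in sh60 and 30 and 14 counts in LacZ for POU5F1P3. Of the other ESRR genes, ESRRA measured 29.7 and 36.2 CPM in sh60 and 30.7 and 32.8 CPM in LacZ, and did not pass (0.06, edgeR adjusted p = 0.739). ESRRG measured 1.17 and 0.641 CPM in sh60 and 1.23 and 1.73 CPM in LacZ, without overlap of the groups, and did not pass (-0.72, edgeR adjusted p = 0.0997), but passed in 4 of 12 alternatives. Of the rows named as let-7 hosts, MIRLET7BHG had 0 counts in both sh60 libraries and 1 and 0 counts in LacZ. MIRLET7DHG had 0 counts in both sh60 libraries and 2 and 0 counts in LacZ. Both are below the limit that a count of 0 allows. MIRLET7DHG is annotated on the minus strand and the MIRLET7D hairpin on the plus strand. With stranded counting the MIRLET7DHG row thus does not measure the transcript that holds that hairpin. MIR99AHG had 17 and 15 counts in sh60 and 14 and 7 counts in LacZ and did not pass (0.48, edgeR adjusted p = 0.487). The hairpin row MIRLET7D had 14 and 12 counts in sh60 and 10 and 8 counts in LacZ and did not pass (0.40, edgeR adjusted p = 0.608).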
